A study of Rattus norvegicus with 12 samples.

Results

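The alpha-macroglobulin family circRNAs are the circular RNAs of 3 rat liver genes, Pzp, Mug2 and LOC297568. They were chosen by host gene: every entry of the circRNA table named after 1 of the 3 genes was taken, together with entries named by an Ensembl identifier that shared a transcript or a junction with such an entry. This gave 111 of 21876 entries, which describe 110 of 21068 back-splice junctions and hold 786 reads. The genes were picked with their levels in these libraries known, so the levels are given as a description.

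The 12 libraries were made from liver of wild-type Wistar rats and fall into 3 groups. The relapse group (n = 2) came from rats labelled as having diabetic relapse after sleeve gastrectomy, in which the larger part of the stomach is cut away. The sleeve gastrectomy group (n = 5) was sampled 3 months after that operation, and the sham group (n = 5) came from rats with a sham operation. For relapse and sham the labels give no time of sampling, so the groups may also differ in time after surgery. All groups share the model: 4 weeks on high-fat chow (60% of energy from fat), then a single injection of streptozotocin, which kills beta cells, at 35 mg/kg following 16 h without food, and entry only above 16.7 mmol/L fasting glucose. The labels give no ages, and they do not say whether any 2 libraries share a rat, so the p-values below measure the spread between these libraries, which may be technical. Each library held 18176 to 37229 back-splice reads, and levels are given as reads-per-million of them (RPM). Reads are counted at a junction, so a level is not divided by length.

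Alpha-macroglobulins are large plasma proteins, made mostly by hepatocytes, that trap proteases. A protease cuts the bait region of the inhibitor, the inhibitor closes around it, and a reactive thioester bond can link the protein to its prey. The complexes are then taken up through the receptor Lrp1. Rats carry several members: Pzp encodes the alpha-1-macroglobulin, a constitutive plasma form, and the murinoglobulins Mug1 and Mug2 act as single-chain inhibitors and belong to the group called alpha-1-inhibitor III, whose plasma level is known to fall in the acute phase. LOC297568 is named in the table as alpha-1-inhibitor III. CircRNAs are RNA loops closed by a back-splice, which joins the end of an exon to the start of the same or an upstream exon. Intronic circles are known to come from lariats, the excised introns, and run from the 5′ splice site towards the branch point.

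The murinoglobulin genes Mug2 and Mug1 are close copies of each other just upstream of their annotated starts, as given by RefSeq for GRCr8. The Mug2 stretch is chr4:156835935-156836154 on the plus strand, the Mug1 stretch is chr4:156748145-156748366 on the plus strand, and the Pzp stretch, shown as a more distant relative, is chr4:163491336-163491485 on the minus strand. Capitals mark the bases that differ between Mug2 and Mug1.
Mug2: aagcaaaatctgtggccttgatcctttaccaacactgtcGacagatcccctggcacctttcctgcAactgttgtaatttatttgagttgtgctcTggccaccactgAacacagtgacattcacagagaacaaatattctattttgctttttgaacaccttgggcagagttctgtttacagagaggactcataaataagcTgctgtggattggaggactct
Mug1: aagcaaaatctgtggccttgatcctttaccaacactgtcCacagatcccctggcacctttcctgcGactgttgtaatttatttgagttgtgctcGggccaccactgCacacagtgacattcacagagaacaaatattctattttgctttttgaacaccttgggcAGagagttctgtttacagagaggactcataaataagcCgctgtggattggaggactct
Pzp: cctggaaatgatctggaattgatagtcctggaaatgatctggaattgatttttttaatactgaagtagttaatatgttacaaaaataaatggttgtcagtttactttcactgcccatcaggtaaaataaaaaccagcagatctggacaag
Over the whole alignment, which runs past the annotated start, 260 of 270 aligned bases of Mug2 and Mug1 were identical (96.3%). The best local alignment of Mug2 with Pzp covered only 24 bases, of which 20 were identical. Reads from near-identical copies can be split or swapped between genes by an aligner. The exons and introns that hold the circles were not compared, so whether this touches the reads of Mug2 was not tested. They are treated as uncertain in this respect. LOC297568 had no entry in the RefSeq tables used here and its sequence was not compared; as a gene of the same group, its reads are treated as uncertain too.

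All 3 genes lie on chromosome 4 of Rnor_6.0, the build named in the submitters' notes. The circles of Mug2 run from 154215262 to 154279557 on the plus strand, those of LOC297568 from 154392986 to 154729166 on the plus strand, and those of Pzp from 161805645 to 161849709 on the minus strand. LOC297568 gave 69 junctions with 312 reads, Mug2 gave 11 junctions with 287 reads, and Pzp gave 30 junctions with 187 reads. LOC297568 thus had the second highest number of junctions of all 6021 host genes, after Tf, the gene of transferrin, with 70, although it ranked only 147 by reads. The 269 other hosts with read totals within 2-fold of its own had a median of 8 junctions and at most 32. The junctions of LOC297568 are pooled under 1 name from 4 transcripts, which do not all lie at the same place. Whether they come from 1 gene or from several copies was not tested, so its rank may not be that of a single gene. Pzp ranked 9 by junctions, and 1 of the 448 other hosts within 2-fold of its reads had as many. Mug2 ranked 232 by junctions and was the opposite case: it held 26.1 reads per junction, against 6.23 for Pzp and 4.52 for LOC297568.

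**Figure D1:**
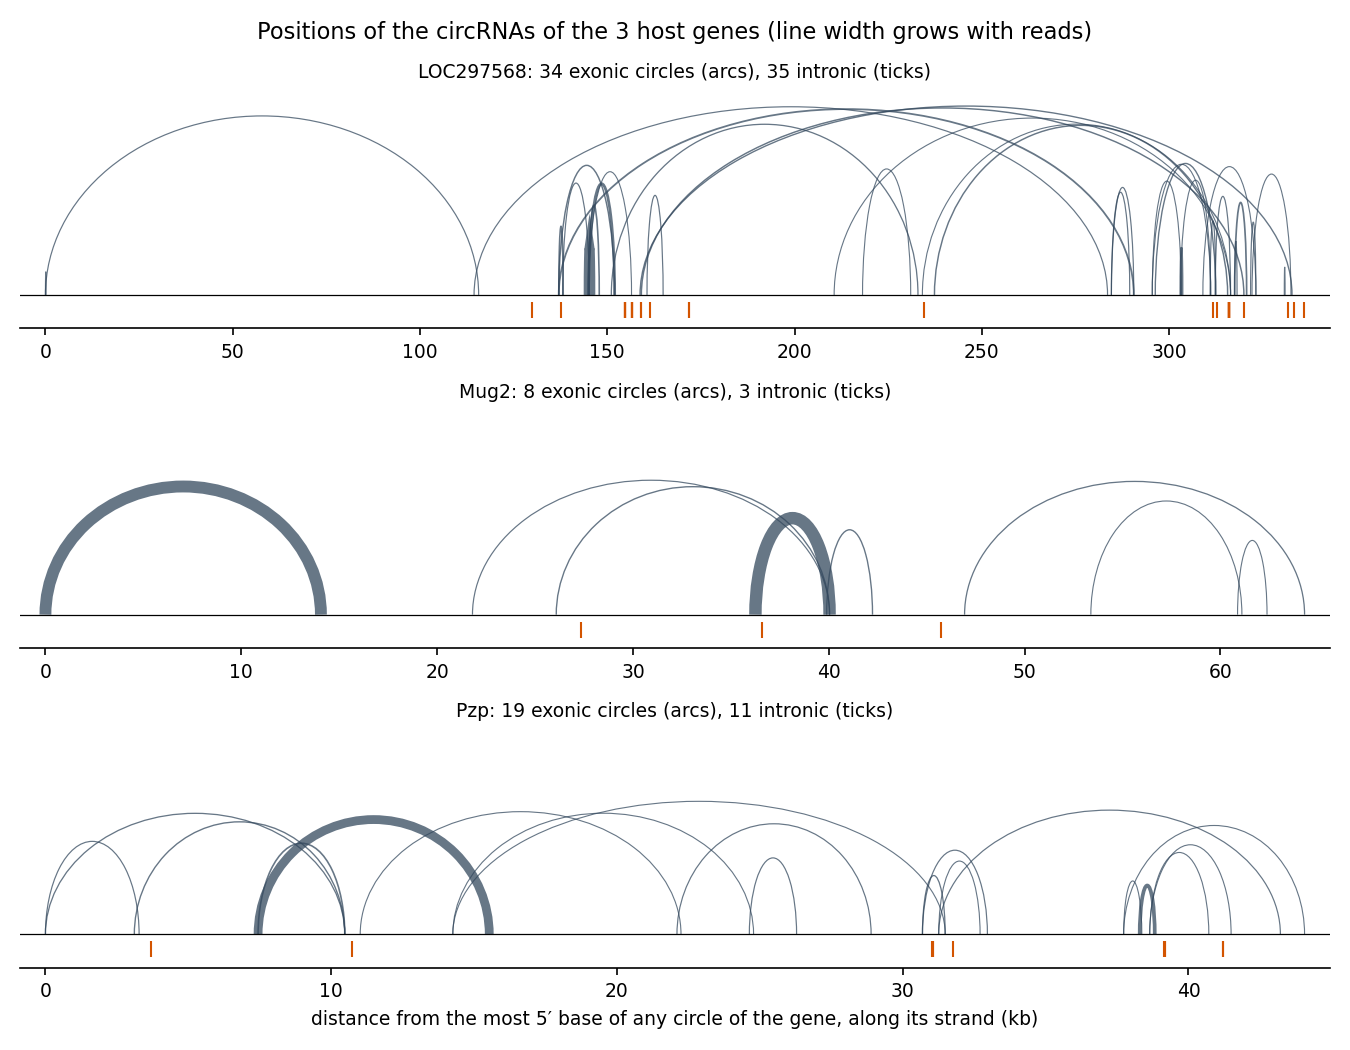
Map of the circles of LOC297568, Mug2 and Pzp. The x axis is the distance in kb along the strand of the gene from the most 5′ base of any of its circles; arcs join the ends of exonic circles, with line width growing with the reads over all 12 libraries and arc height growing with span, and ticks mark the middle of intronic circles. Mug2 and Pzp are dominated by 1 or 2 thick arcs, and 9 arcs of LOC297568 span over 50000 bases.

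Most circles were read in 1 library. Of the 110 junctions, 78 (70.9%) were read in a single library, against 60.7% of all 20235 junctions with a host gene. Of the 110, 12 (10.9%) were read in all 3 groups, 22 (20%) only in relapse, 33 (30%) only after sleeve gastrectomy and 29 (26.4%) only in sham. Over all junctions with a host gene the shares were 15.6% in all 3 groups, 10.6% only in relapse, 28.7% only after sleeve gastrectomy and 26.7% only in sham. The reads of Mug2 and Pzp sat in a few circles. The 3 circles with most reads held 94.4% of the reads of Mug2 and 72.2% of those of Pzp, but 46.2% of those of LOC297568. In Mug2, circRNA2856 (154251516 to 154255302, 4 exons) had 137 reads and circRNA2855 (154215262 to 154229329, 5 exons) had 130. In Pzp, circRNA4695 (161834177 to 161842267, exons 8 to 13) had 93 reads and circRNA1566 (161810888 to 161811414, 2 exons) had 32. In LOC297568, circRNA1550 (154538001 to 154538495, exons 12 and 13) had 105 reads.

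In each gene, of the splice sites shared by several circles, the one with most reads is described here. At each of them 1 circle held most of the reads: circRNA1550 with 105, circRNA2856 with 137 and circRNA4695 with 93. The share of other hosts with such a site was not counted. In LOC297568, 4 circles began at position 154538001, the start of exon 12 of the transcript ENSRNOT00000081488, and together held 134 reads, or 59.0% of the exonic reads of the gene. A second circle of exons 12 and 13, circRNA1555 of the transcript ENSRNOT00000019969 (154696044 to 154696541), had 13 reads, and the spans of the pair, 495 and 498 bases, differed by a few bases. In Mug2, 3 circles ended at 154255302 with 143 reads, 50.7% of its exonic reads, and in Pzp, 2 circles ended at 161842267, the 5′ side of exon 8, with 100 reads, 62.5% of its exonic reads.

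LOC297568 was also the host of 9 junctions entered as exonic circles that spanned 78275 to 174064 bases, with 32 reads in all. Its other circles spanned at most 16142 bases. Mug2 and Pzp had none over 50000 bases. Of all 17483 exonic junctions with a host gene, 3.68% spanned over 50000 bases. Sham 5 alone held 15 of the 32 reads, and 5 of the 9 circles, with 23 reads, were in entries named by an Ensembl identifier. Some joined consecutive exon numbers of different transcripts. In circRNA19035 the end of exon 8 of ENSRNOT00000019969 (154683566) meets the start of exon 9 of ENSRNOT00000081488 (154530043). The ends of circRNA5887, 154552096 and 154712965, lie beside the introns numbered 23 of ENSRNOT00000081488 and ENSRNOT00000079192. Whether such junctions are circles or reads misplaced between like copies was not tested.

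Intronic circles made up a large part of the family's junctions, most of them in LOC297568. They were 49 of its 110 junctions (44.5%) and took 14.9% of its reads, against 13.6% of junctions and 6.80% of reads over all junctions with a host gene. LOC297568 had 35 of them (50.7% of its junctions, 27.2% of its reads). Pzp had 11 with 27 reads (36.7% of its junctions, 14.4% of its reads). Mug2 had 3 with 5 reads (27.3% of its junctions, 1.74% of its reads), a smaller share of reads than over all junctions with a host gene. Of those 5 reads, 3 were of ciRNA234, which begins at 154251516, as does the exonic circRNA2856. Many shared 1 end. The 35 of LOC297568 began at 15 distinct 5′ ends, 5 of which served several circles, and the 11 of Pzp began at 6, of which 3 served several.

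Introns of the same number in LOC297568 transcripts that lie at different places had circles of like lengths. The circles of the introns numbered 18 began at 154547446 and 154708626, and those of the introns numbered 23 at 154551832 and 154712967. Whether these are separate gene copies under 1 name was not tested. Intron 18 of ENSRNOT00000081488 gave 5 circles of 531 to 539 bases with 31 reads, and intron 18 of ENSRNOT00000079192 gave 11 circles of 524 to 552 bases with 16 reads. Intron 23 gave ciRNA92, of 263 bases and 18 reads, in ENSRNOT00000079192, and 2 circles of 262 and 263 bases with 3 reads in ENSRNOT00000081488. Intron 21 of the same transcript gave 5 circles of 422 to 475 bases with 6 reads, 5 of them in relapse. In Pzp, intron 31 gave 2 circles of 383 and 385 bases with 14 reads, intron 18 gave 3 of 346 to 375 bases with 6 reads, and intron 28 gave 3 of 669 to 689 bases with 3 reads. Circles were grouped here by their 5′ end, so a fixed 5′ end is given by the grouping. Their 3′ ends spread over the ranges of length above. The 3′ end of ciRNA428, a circle of 263 bases from intron 23 of ENSRNOT00000081488, was at 154552094, beside the start of circRNA5887 at 154552096. Where the ends lie relative to a branch point was not tested.

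**Figure D2:**
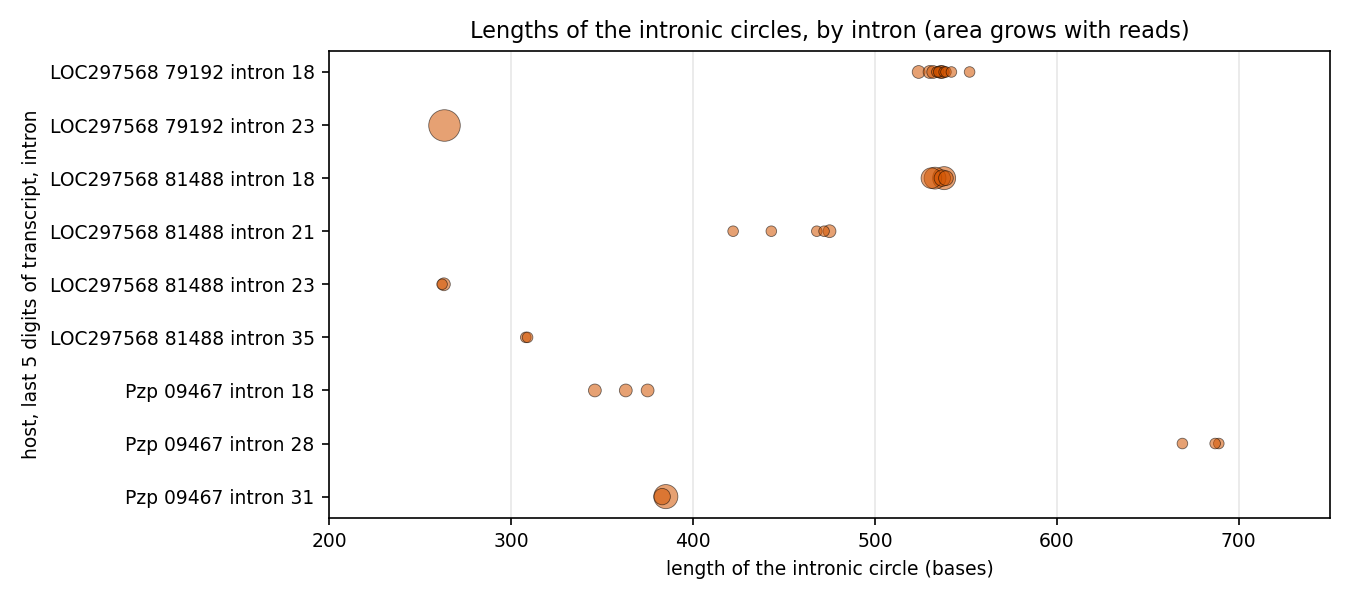
Length in bases of the intronic circles of LOC297568 and Pzp (x axis) for each intron with several circles or with ciRNA92 (y axis, with the last digits of the transcript). Each point is a circle and its area grows with its reads; the circles of both introns numbered 18 in LOC297568 lie between 524 and 552 bases, and those of both introns numbered 23 at 262 and 263 bases.

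LOC297568 circles were most abundant in relapse. The relapse libraries 1 and 2 had 2436 and 2283 RPM. The sleeve gastrectomy libraries 1 to 5 had 709, 934, 917, 623 and 924 RPM, and the sham libraries 1 to 5 had 530, 385, 156, 702 and 2092 RPM. Both relapse libraries lay above every other library, but sham 5 came close to them and stood far from the remaining 4 sham libraries. Means were 2360 ± 108 RPM in relapse, 821 ± 145 after sleeve gastrectomy and 773 ± 764 in sham (SD, n = 2, 5 and 5).

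Mug2 circles ranged widely in every group. The relapse libraries had 2274 and 940 RPM. The sleeve gastrectomy libraries had 898, 2260, 216, 950 and 1233 RPM, and the sham libraries had 894, 770, 260, 351 and 1069 RPM. The groups overlapped: relapse 1 and sleeve gastrectomy 2 were high and alike, and sleeve gastrectomy 3 was the lowest of all. Means were 1607 ± 943 RPM in relapse, 1111 ± 743 after sleeve gastrectomy and 669 ± 350 in sham (SD, n = 2, 5 and 5).

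Pzp circles overlapped between all groups. The relapse libraries had 379 and 806 RPM. The sleeve gastrectomy libraries had 473, 639, 485, 590 and 856 RPM, and the sham libraries had 530, 165, 677, 852 and 1209 RPM. The lowest and the highest value were both in sham, and both other groups lay within that range. Means were 592 ± 302 RPM in relapse, 609 ± 155 after sleeve gastrectomy and 687 ± 386 in sham (SD, n = 2, 5 and 5).

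**Figure D3:**
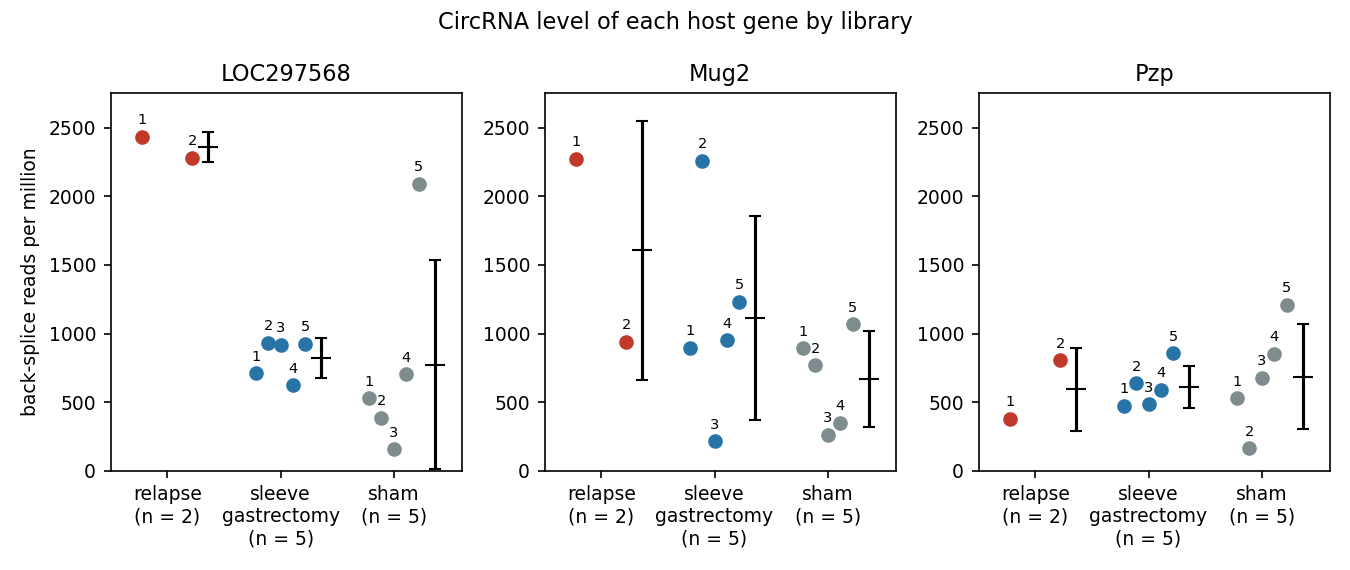
CircRNA level of each host gene in RPM (y axis) in the 12 libraries, by group (x axis). Points are libraries with their replicate number, and the bar beside each group is its mean with the SD; for LOC297568 both relapse points lie above all others and sham 5, at 2092, lies apart from the other sham libraries.

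Summed over the 3 genes, the family averaged 4559 ± 749 RPM in relapse, 2541 ± 880 after sleeve gastrectomy and 2128 ± 1307 in sham (SD, n = 2, 5 and 5). The number of member junctions read per library was 19 and 32 in relapse, 10 to 22 after sleeve gastrectomy and 8 to 24 in sham, so the groups overlapped. LOC297568 made up 52.3 ± 6.22% of the family's reads in relapse, 34.9 ± 12.7% after sleeve gastrectomy and 31.1 ± 12.4% in sham (SD, n = 2, 5 and 5).

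Relapse was first set against sleeve gastrectomy, the comparison of rats whose diabetes returned with rats after the same operation. The level of LOC297568 in relapse was 2.80 times that after sleeve gastrectomy (log2 fold change 1.48, SE 0.48), with an unadjusted p of 0.00375, the seventh smallest of 1337 tested hosts, and did not pass after Benjamini-Hochberg adjustment (edgeR quasi-likelihood test, adjusted p = 0.627). In the same edgeR fit the log2 difference was 0.44 for Mug2, with an SE of 0.56, and -0.03 for Pzp, with an SE of 0.54, and both had an adjusted p of 1. At an adjusted p under 0.05, 0 of the 3 genes passed, against 0.0748% of all tested hosts (1 of 1337), and 4.34% of hosts (58) had an unadjusted p under 0.05, LOC297568 among them. Both relapse libraries lay above every sleeve gastrectomy library for LOC297568, which held for 5.24% of tested hosts.

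Against sham, the level of LOC297568 in relapse was 2.92 times as high (log2 fold change 1.55, SE 0.48), which again did not pass (edgeR quasi-likelihood test, adjusted p = 0.374). Mug2 had a log2 fold change of 1.13 (SE 0.56) with an adjusted p of 0.806, and Pzp one of -0.19 (SE 0.53) with an adjusted p of 0.990, in edgeR. Again 0 of the 3 passed, against 0.15% of tested hosts (2 of 1337), with 5.91% (79), LOC297568 among them, at an unadjusted p under 0.05. Both relapse libraries lay above every sham library for LOC297568, as they did for 5.31% of tested hosts. The call in this comparison changed with sham 5: without it, the sham mean of LOC297568 was 443 RPM, the log2 fold change was 2.35 and the gene passed (edgeR, adjusted p = 0.00305), as did 0.393% of 1273 hosts in that fit. The 2 relapse comparisons share the relapse libraries.

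Sleeve gastrectomy was then set against the sham operation. LOC297568 had a log2 fold change of 0.06 (SE 0.41), Mug2 one of 0.69 (SE 0.45) and Pzp one of -0.17 (SE 0.41), and all 3 had an adjusted p of 0.997 in edgeR. None of the 3 passed, against 0.15% of tested hosts, with 3.74% (50), none of the 3 among them, at an unadjusted p under 0.05.

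**Figure D4:**
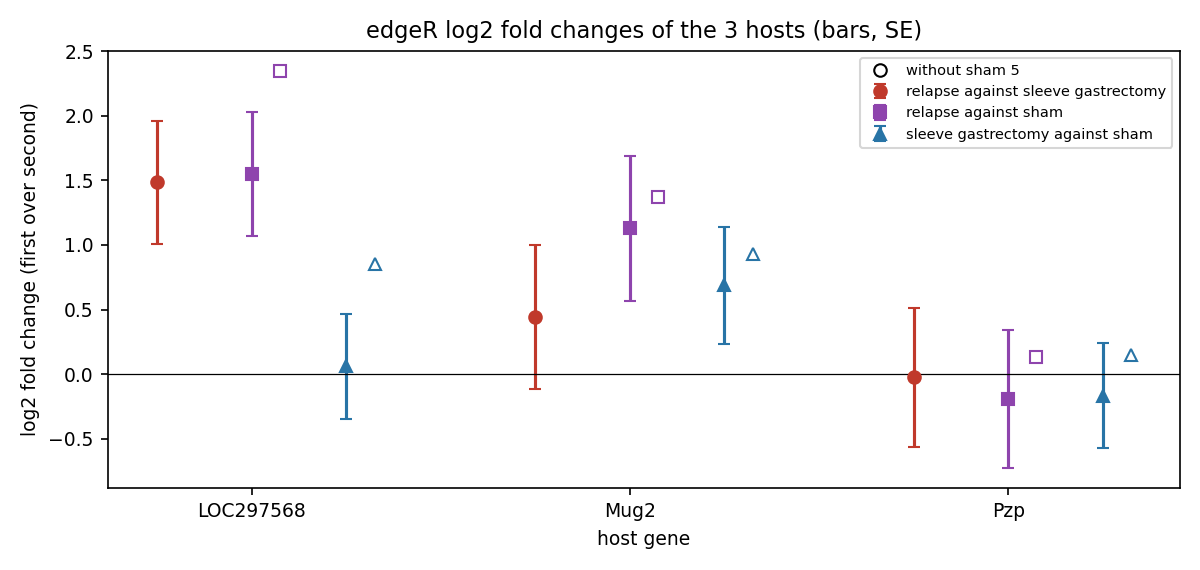
Log2 fold changes of the 3 host genes in edgeR (y axis, first group over second) for each of the 3 comparisons (colours and marker shapes). Filled markers are fits on all 12 libraries with bars of 1 SE. Open markers are the values without sham 5, drawn only for the comparisons with sham. Without sham 5, LOC297568 in relapse against sham moves to 2.35, and Pzp stays near 0.

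Most of the LOC297568 reads of sham 5 were in circles that no other library held. It had 45 reads over 14 junctions of the gene, and 8 of these, with 28 reads (62.2%), were read in no other library. The relapse libraries 1 and 2 had 11.1% and 14.1% of their LOC297568 reads in junctions read nowhere else (4 and 10 junctions), and the share was higher than in sham 5 only in sham 3, at 66.7%, or 2 of 3 reads. The largest of those of sham 5 were circRNA19035, which spans 153524 bases, with 9 reads, and circRNA18749, with 8. In junctions that were also read elsewhere, sham 5 had 17 reads. The part of these circles in the sham mean was not tested.

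The leading LOC297568 circle showed the same order of groups. For circRNA1550, relapse had 15 and 39 reads, sleeve gastrectomy had 0, 12, 3, 4 and 11, and sham had 5, 2, 0, 5 and 9. In RPM this was 930 ± 167 in relapse, 252 ± 232 after sleeve gastrectomy and 189 ± 157 in sham (SD, n = 2, 5 and 5). The relapse libraries were at 812 and 1048 RPM, and the highest value of the other groups was 590. The share of all tested junctions with such a separation was not counted, so whether it is unusual is not known. The log2 fold change of circRNA1550 in relapse was 1.89 (SE 0.78, edgeR adjusted p = 0.981) against sleeve gastrectomy and 2.29 (SE 0.79, edgeR adjusted p = 0.706) against sham. Over the 4 circles that begin at exon 12, levels were 1335 ± 26.3 RPM in relapse, 281 ± 217 after sleeve gastrectomy and 237 ± 220 in sham (SD, n = 2, 5 and 5).

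Relapse also had the highest mean without circRNA1550. The rest of LOC297568 had 1430 ± 275 RPM in relapse, 569 ± 167 after sleeve gastrectomy and 584 ± 619 in sham (SD, n = 2, 5 and 5). Here relapse, at 1236 and 1624 RPM, still lay above the highest sleeve gastrectomy library, at 755, but not above the highest sham library, sham 5, at 1674. The intronic circles of the gene had 688 ± 175 RPM in relapse, 287 ± 182 after sleeve gastrectomy and 139 ± 44.3 in sham (SD, n = 2, 5 and 5). The intronic values of relapse were 564 and 812, and the highest of sleeve gastrectomy was 539 and of sham 201. They rest on few reads, 21 and 15 in relapse 2 and 1 and 10 in sleeve gastrectomy 3, so 564 and 539 are not told apart. The share of hosts with such separations in parts of their circles was not counted. In intronic circles sham 5 did not stand apart, since all 5 sham libraries lay between 93 and 201 RPM. The exonic circles had 1672 ± 67.2 RPM in relapse, 534 ± 179 after sleeve gastrectomy and 634 ± 782 in sham (SD, n = 2, 5 and 5), and sham 5, at 1999 RPM, lay above both relapse libraries, at 1624 and 1719.

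The other LOC297568 circles named here were sparse. The circle of exons 12 to 17, entered both as circRNA1552 and as circRNA5886, had 8 and 5 reads in relapse, 3 reads over the sleeve gastrectomy group and 5 over sham. The intronic ciRNA92 had 7 and 1 reads in relapse, 6 in sleeve gastrectomy 3 and 1 in sleeve gastrectomy 5, and 2 and 1 in sham 2 and 3. In relapse, ciRNA92 had a log2 fold change of 1.45 (SE 1.98, edgeR adjusted p = 1) against sleeve gastrectomy and of 2.46 (SE 2.004, edgeR adjusted p = 0.951) against sham. A count of 0 in the smallest library allows up to 165 RPM, counting error only.

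The main circles of Mug2 were highest in different libraries. For circRNA2856, relapse had 30 and 15 reads, sleeve gastrectomy had 4, 29, 3, 4 and 11, and sham had 5, 14, 5, 6 and 11. It was read in all 12 libraries. For circRNA2855, relapse had 9 and 20 reads, sleeve gastrectomy had 15, 17, 0, 21 and 23, and sham had 17, 0, 0, 0 and 8. That circle had 0 reads in 4 libraries and was at 487 to 835 RPM in relapse and in the sleeve gastrectomy libraries where it was read. After sleeve gastrectomy its log2 fold change against sham was 1.56 (SE 0.995, edgeR adjusted p = 0.996), a difference within the spread between libraries.

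Both circles were in entries named by an Ensembl identifier, as were 94.1% of all Mug2 reads, against 8.97% of LOC297568 reads and none of those of Pzp. In those Mug2 entries no library had a value of exactly 1 read, whereas 7 of the 11 values above 0 in the symbol entries of Mug2 were 1. The identifier entries of LOC297568, which hold 5 of its 9 long circles, likewise had no 1 among 7 values above 0, against 62 of 109 in its symbol entries. Whether a minimum number of reads had been applied to identifier entries is not given in the labels and was not tested; if so, a 0 there need not be an absence of reads, and single-library counts would be touched too. The other Mug2 circles named here, circRNA11617 and circRNA13354, had 4 reads each.

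For Pzp, circRNA4695 had 0 and 14 reads in relapse, 3, 10, 3, 6 and 18 after sleeve gastrectomy, and 10, 0, 7, 7 and 15 in sham. For circRNA1566, relapse had 1 and 8 reads, sleeve gastrectomy had 3, 0, 3, 1 and 1, and sham had 2, 0, 0, 6 and 7. The groups overlapped in both circles. The intronic ciRNA434 had 10 reads over 5 libraries. Of the 110 junctions, 6 passed the low-count filter, and at an adjusted p under 0.05, 0 of the 6 passed in any comparison, as did 0% of all 1519 tested junctions in edgeR. At an unadjusted p under 0.05 there were 73 junctions (4.81%) in relapse against sleeve gastrectomy and 88 (5.79%) in relapse against sham, circRNA1550 among them in both, and 59 (3.88%) in sleeve gastrectomy against sham, with none of the 6 among them.

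**Figure D5:**
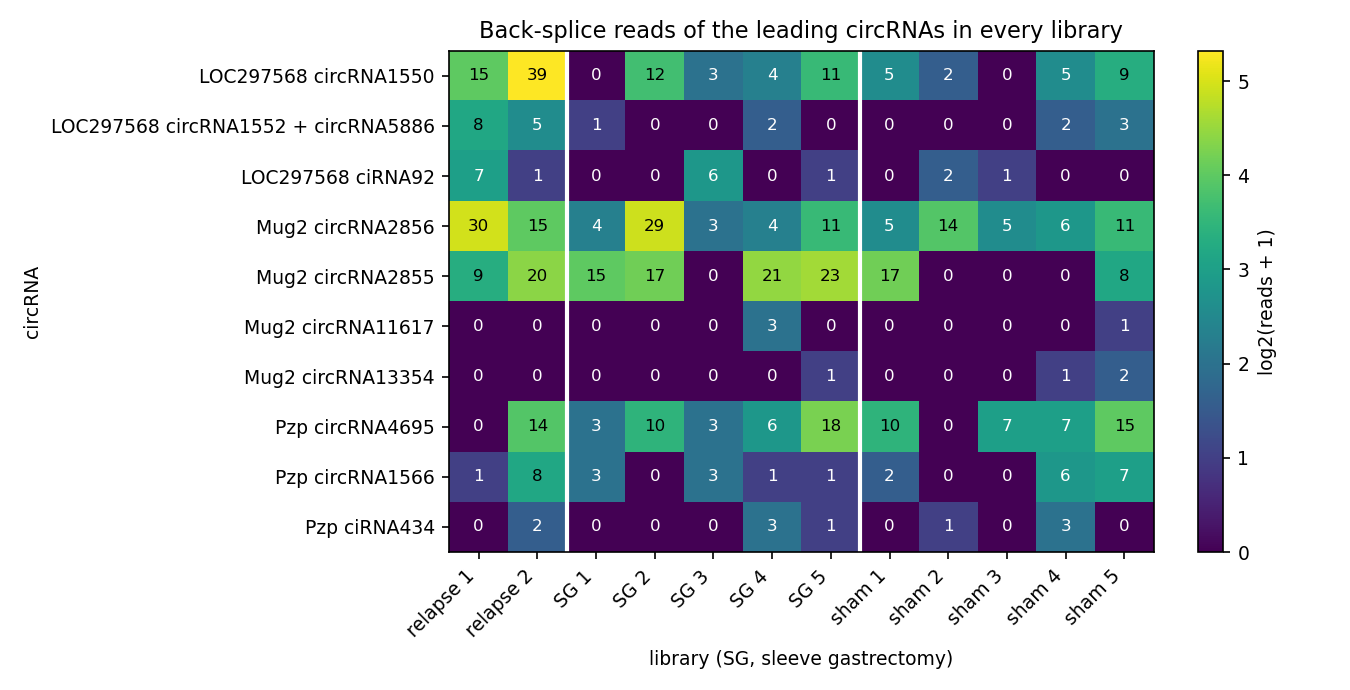
Back-splice reads of 10 circRNAs of LOC297568, Mug2 and Pzp (y axis) in each of the 12 libraries (x axis; SG, sleeve gastrectomy). Each cell gives the read count and is coloured by log2(reads + 1); circRNA1550 has its highest counts in relapse, circRNA2856 is read in every library and circRNA2855 is at 0 in 4.

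Other genes of the same system were measured through their own circles. Of 6 further alpha-macroglobulin genes listed, 2 had reads under their own symbol, A2ml1 with 4 and Cd109 with 3, and neither was tested. C3, a complement component with the same kind of thioester bond, and C5, its relative that lacks that bond, were tested and did not pass in any comparison. C3 had 2172 ± 450 RPM in relapse, 2867 ± 657 after sleeve gastrectomy and 1728 ± 662 in sham (SD, n = 2, 5 and 5), with a log2 fold change after sleeve gastrectomy against sham of 0.71 (SE 0.26, edgeR adjusted p = 0.680). C5 had 215 ± 151 RPM in relapse, 378 ± 162 after sleeve gastrectomy and 326 ± 178 in sham (SD, n = 2, 5 and 5). The receptor gene Lrp1 had 18 reads, too few to test.

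Of 29 other plasma protease inhibitor genes, 15 had reads and 3 were tested, of which 0 passed in any comparison. Itih2 and Itih3, heavy chains of the inter-alpha-trypsin inhibitors, had the most reads. In relapse against sham the log2 fold change was -0.25 (SE 0.61, edgeR adjusted p = 0.990) for Itih2 and -0.89 (SE 0.90, edgeR adjusted p = 0.979) for Itih3. Of the 29 listed plasma and matrix proteases 3 were tested, of 13 positive acute phase proteins 2, of 11 negative ones 6, and of 19 genes of interleukin 6 and glucocorticoid signalling 3, and 0 of each passed in any comparison. Among the negative acute phase genes the median log2 fold change in relapse was -0.46 against sleeve gastrectomy and -0.27 against sham, beside medians of -0.05 and -0.08 over all tested hosts. The 2 tested positive acute phase genes had medians of -0.82 against sleeve gastrectomy and -1.76 against sham, with 1 of the 2 at an unadjusted p under 0.05 in each.

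Markers of hepatocytes were far above those of other cells. Of 12 hepatocyte genes, 10 had circles, with 0 reads for Cyp3a2 and Ttr, and their summed level was 18730 to 21677 RPM in relapse, 19605 to 34923 after sleeve gastrectomy and 26078 to 36917 in sham. The relapse sums thus lay below every sham library while LOC297568 lay above them. Most of the sum was Cyp2c7, a cytochrome P450, with 11849 ± 603 RPM in relapse and 19914 ± 2584 in sham, and Cps1, the first enzyme of the urea cycle, with 3366 ± 1698 RPM in relapse and 5761 ± 1329 in sham (SD, n = 2 and 5). Other tested markers were also lower in relapse than in sham, with means of 729 and 1087 RPM for Pck1, 108 and 211 RPM for Apob, and 0 and 166 RPM for Cyp7a1. Alb, the gene of albumin, was nearly level at 1511 and 1575 RPM. Higher in relapse were Tat, a tyrosine-degrading enzyme, at 1159 and 951 RPM, and Cyp2c11, another cytochrome P450, at 1374 and 882 RPM. Over the 8 tested markers the median log2 fold change in relapse against sham was -0.73, beside -0.08 over all tested hosts. None of the 8 passed in edgeR in any comparison. In bulk tissue, fewer cells of a type and less RNA per cell cannot be told apart. Of 10 Kupffer cell and macrophage genes, 3 had reads (108 to 242 RPM in relapse, 34.2 to 835 after sleeve gastrectomy, 52.1 to 511 in sham), of 8 endothelial genes 4, of 10 stellate cell genes 4, of 7 cholangiocyte genes 1, of 10 lymphocyte and granulocyte genes 1, and of 10 pancreas and gut genes 0. Defining markers at 0 in all 12 libraries included Clec4f, Marco, Pecam1, Lrat, Krt19 and Cd3e. The part of these marker levels in the LOC297568 difference was not tested.

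Across the 12 libraries the 3 genes did not have the most similar profiles to each other. Likeness was measured as the root mean square difference in log2 CPM, the depth-scaled count, each gene centred on its own mean. For LOC297568 the nearest tested host was Dab2ip, at 0.57, followed by Acss3, the unnamed gene ENSRNOG00000061603, Ephb4 and Brms1l, while Mug2 ranked 124 at 0.89 and Pzp 185 at 0.94. For Mug2 the nearest were Cpq, at 0.47, Tmtc1, Ric8b, Hao1 and Sdccag8, with LOC297568 at rank 150 and Pzp at rank 553. For Pzp the nearest were Tnrc6b, at 0.34, Bbs5, Gstt1, Phkb and Zmym4, with LOC297568 at rank 768 and Mug2 at rank 1063. These hosts share the libraries and their depth, and the distances are descriptions over 12 samples.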

How the data were processed

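Liver RNA was depleted of ribosomal RNA, treated with RNase R to remove linear RNA and sequenced as stranded paired-end libraries, per the labels' protocols. The submitters' processing notes name cutadapt 1.9, FastQC, TopHat2 2.0.10 and Rnor_6.0; how back-splices were called is not given in the sources used here. The authors deposited 1 table of back-splice read counts per circRNA and library, taken here as raw counts, beside normalised values that were not used. All 12 count columns were mapped to samples by name.

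Identifiers were joined to symbols by gene record, transcript or junction (1449 of 1696), giving 6021 hosts; 808 junctions written as 2 entries were summed. Symbol entries count starts from 0, so 1 was added. Counts per host and per junction were tested with edgeR 4.0.16 in R 4.3.3 (TMM, filterByExpr with a minimum count of 5 and total of 15, robust quasi-likelihood F-test, 3 group means on all 12 libraries, Benjamini-Hochberg over all features, threshold 0.05). This was checked on simulated counts. Likeness used log2 CPM with a prior count of 2. SE is the log2 fold change over the square root of F, and a count of 0 allows 3 reads. The floor covers counting error only.

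The members, the 15 gene lists and the rules were chosen with earlier results of these data known. Named are the 3 hosts, junctions past the filter and the 3 with most reads of each host, up to 2 tested hosts of 4 lists and 5 like hosts; other genes were named after their values were seen. Alternatives tried were DESeq2 1.42.0, other filters, a replicate block, the entries used and leaving out each library.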

Additional observations from a re-analysis of the deposited data

Results flagged for a closer look

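In 8 of 36 groups of 5 libraries, 1 library stood apart from the others by Dixon's criterion. Its rate of about 1 in 20 groups holds for independent, normally distributed values. Many of these values are sparse counts, and the levels of genes and of their sum contain those of their circles. The 8 groups are therefore not weighed against that rate. For LOC297568, sham 5 had 2092 RPM, against 156 to 702 in the other sham libraries, and for the sum of the 3 genes it had 4370 RPM, against 1093 to 1953. In the sleeve gastrectomy group, ciRNA92 of LOC297568 had 324 RPM in library 3, against 0 to 34.2 in the others. For Mug2, circRNA2856 had 1425 RPM in sleeve gastrectomy 2, against 131 to 377, and circRNA2855 had 0 RPM in sleeve gastrectomy 3, against 688 to 835. The remaining 3 came from 1 to 3 reads in a library with 0 in the others of its group: circRNA11617 of Mug2 at 98.3 RPM in sleeve gastrectomy 4 and 46.5 RPM in sham 5, and circRNA13354 of Mug2 at 34.2 RPM in sleeve gastrectomy 5.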

How the results depend on the processing

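The count of member hosts past the threshold in relapse against sham was 0, and 1 (LOC297568) with the replicate block (log2 fold change 2.04, edgeR adjusted p = 0.0352) and without sham 5; left-out libraries gave 0 to 1, and adjusted p over all alternatives ran from 0.00305 to 0.702. For LOC297568 against sleeve gastrectomy the log2 fold change stayed between 1.42 and 1.69, with adjusted p from 0.143 to 0.917. Member junctions past the threshold were 0 under every alternative run, DESeq2 included, as were member hosts with DESeq2 and, under every alternative run, in the other 2 comparisons. The replicate numbers did not pair the libraries: deviations of libraries with the same number correlated between -0.0956 and 0.038, and 0 of 5 sleeve gastrectomy libraries correlated best with the sham library of their number. Values near 0 changed sign. Pzp in relapse against sleeve gastrectomy was 0.0063 with DESeq2, 0.0193 with no filter, 0.4068 with the block, 0.0075 with host names as written, 0.0173 with the 2 groups alone and -0.80 to 0.46 with left-out libraries. In relapse against sham Pzp was 0.28 with the block and -0.95 to 0.31 with left-out libraries. With left-out libraries Mug2 in relapse against sleeve gastrectomy was -0.17 to 0.93, and in sleeve gastrectomy against sham LOC297568 was -0.19 to 0.85 and Pzp -0.40 to 0.14. The cause was not tested. With symbol entries alone, which leave out most Mug2 reads by construction, Mug2 had 0 RPM in relapse, 50.7 after sleeve gastrectomy and 80.3 in sham, with 0 junctions per library in relapse and 1 after sleeve gastrectomy; the family sum was 2858 in relapse, 1411 after sleeve gastrectomy and 1419 in sham, so that sleeve gastrectomy no longer had the higher mean of the last 2 groups. Counting only junctions with 2 or more reads in a library gave 9 for LOC297568 in relapse and 3.6 after sleeve gastrectomy, 2.4 for Pzp in sham, and 15 in relapse and 8.6 after sleeve gastrectomy for the family. Mug2 could not be tested as a host with symbol entries alone or with host names as written. Depth limits every single circle here: 33 junctions of LOC297568, 4 of Mug2 and 13 of Pzp had a single read.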
